A study of Homo sapiens with 3 samples.

Results

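The ADAM, ADAMTS and ADAMTSL genes were examined as a family in MDA-MB-231 cells for peaks of the AP-1 factors Fra-1 and Fra-2. Members were taken by name: every protein-coding gene on chromosomes 1 to 22 in GENCODE 44 on GRCh37 whose symbol is ADAM, ADAMTS or ADAMTSL followed by digits. This gave 44 of 19229 autosomal protein-coding genes, namely 20 ADAM, 19 ADAMTS and 5 ADAMTSL genes. A peak was in reach of a gene when its centre lay in the gene body or no more than 100 kb from a transcription start site (TSS) of its protein-coding transcripts. MDA-MB-231 is a human triple-negative breast cancer line classed as basal B, grown untreated in serum-containing medium. Chromatin immunoprecipitation followed by sequencing (ChIP-seq) was carried out on it with an antibody to Fra-1, with an antibody to Fra-2, and on input DNA. The labels mention 2 replicates of each, but there is 1 peak list per antibody, which leaves no replicate spread for any value, and the input was not analysed here. The Fra-1 list holds 9998 peaks and the Fra-2 list 13003, each with its ends and no height or score, and the read depth behind them is unknown. The identity of the cells could not be checked against markers, since the lists carry no expression values.

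ADAM proteins are membrane-anchored metalloproteases that cut the extracellular parts of other membrane proteins, a step called shedding which frees growth factors, cytokines and adhesion molecules. Several ADAM proteins lack catalytic residues and act in cell adhesion, many of them in sperm or brain. ADAMTS proteins are secreted relatives with thrombospondin repeats that cut proteoglycans, procollagens and von Willebrand factor in the extracellular matrix or in blood, and ADAMTSL proteins share the repeats but have no protease domain. Fra-1 and Fra-2, the products of FOSL1 and FOSL2, pair with Jun proteins to form AP-1 dimers, which recognise the element TGACTCA. Its other strand reads TGAGTCA, and both spellings were counted.

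The sequences under the widest peaks with that element are examples of sites in reach of the leading members. They were chosen for holding the element, so its presence in them is no result. For the first 8 of the 12 members with the most peaks that had such a window free of UTR sequence, the 201 bases around the centre of its widest peak are given, on the plus strand of GRCh37 and with the AP-1 element in capitals.
ADAM12, outside the gene, chr10:128148701-128148901: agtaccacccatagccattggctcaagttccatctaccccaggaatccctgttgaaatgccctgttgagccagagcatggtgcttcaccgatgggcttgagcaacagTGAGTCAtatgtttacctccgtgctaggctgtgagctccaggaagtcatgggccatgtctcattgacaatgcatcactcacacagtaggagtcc
ADAMTS12, intron 2, chr5:33789076-33789276: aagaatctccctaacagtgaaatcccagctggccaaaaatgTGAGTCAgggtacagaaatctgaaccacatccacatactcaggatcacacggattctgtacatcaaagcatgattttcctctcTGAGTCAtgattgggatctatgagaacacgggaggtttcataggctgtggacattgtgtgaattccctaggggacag
ADAM11, outside the gene, chr17:42872426-42872626: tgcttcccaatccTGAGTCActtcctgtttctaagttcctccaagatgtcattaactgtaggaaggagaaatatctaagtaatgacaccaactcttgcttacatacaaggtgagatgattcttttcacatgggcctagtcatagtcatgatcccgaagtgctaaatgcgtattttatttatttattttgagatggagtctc
ADAMTS16, intron 2, chr5:5145851-5146051: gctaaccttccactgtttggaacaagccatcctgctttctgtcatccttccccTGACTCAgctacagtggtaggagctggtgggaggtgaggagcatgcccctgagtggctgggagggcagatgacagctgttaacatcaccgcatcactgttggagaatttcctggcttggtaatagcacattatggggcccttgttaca
ADAMTS17, intron 13, chr15:100651401-100651601: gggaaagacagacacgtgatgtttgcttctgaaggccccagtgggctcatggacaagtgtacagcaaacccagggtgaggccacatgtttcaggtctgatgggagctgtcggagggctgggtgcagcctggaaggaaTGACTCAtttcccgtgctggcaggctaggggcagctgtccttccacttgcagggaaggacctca
ADAMTS18, intron 16, chr16:77342151-77342351: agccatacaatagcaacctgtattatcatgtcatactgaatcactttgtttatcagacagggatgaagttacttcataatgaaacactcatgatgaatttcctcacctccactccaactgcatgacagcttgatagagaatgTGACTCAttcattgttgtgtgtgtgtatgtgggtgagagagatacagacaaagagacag
ADAMTSL4, outside the gene, chr1:150577276-150577476: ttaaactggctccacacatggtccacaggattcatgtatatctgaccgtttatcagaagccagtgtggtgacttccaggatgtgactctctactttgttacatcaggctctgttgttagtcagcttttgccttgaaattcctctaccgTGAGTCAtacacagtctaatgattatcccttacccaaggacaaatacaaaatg
ADAM8, outside the gene, chr10:135106826-135107026: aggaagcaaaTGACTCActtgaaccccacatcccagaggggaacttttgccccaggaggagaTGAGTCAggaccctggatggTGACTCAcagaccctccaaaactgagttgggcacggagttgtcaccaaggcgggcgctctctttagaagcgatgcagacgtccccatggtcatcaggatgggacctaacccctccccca
The ADAM8 window held 3 copies of the element and the ADAMTS12 window 2, and the other 6 windows held 1 each. Of these peaks, only the one in intron 2 of ADAMTS16 was absent from the other list. Those given for ADAM12, ADAM11, ADAMTSL4 and ADAM8 were nearest to a TSS of another gene. A further 4 windows were chosen after the values had been seen: the widest intronic site with the element in ADAM12 and in ADAM17, the widest site outside the gene for ADAM19, and a site beside ADAM8 that holds the cyclic AMP response element TGACGTCA, here in capitals, in place of the AP-1 element.
ADAM12, intron 3, chr10:127887876-127888076: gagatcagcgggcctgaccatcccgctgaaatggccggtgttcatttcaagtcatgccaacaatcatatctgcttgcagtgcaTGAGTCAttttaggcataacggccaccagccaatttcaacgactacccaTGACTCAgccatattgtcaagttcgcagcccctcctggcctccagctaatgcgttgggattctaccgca
ADAM17, intron 1, chr2:9692776-9692976: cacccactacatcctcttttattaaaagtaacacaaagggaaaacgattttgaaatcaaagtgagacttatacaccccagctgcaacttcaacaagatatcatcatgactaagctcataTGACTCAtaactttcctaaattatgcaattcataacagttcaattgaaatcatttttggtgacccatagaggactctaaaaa
ADAM19, outside the gene, chr5:157030451-157030651: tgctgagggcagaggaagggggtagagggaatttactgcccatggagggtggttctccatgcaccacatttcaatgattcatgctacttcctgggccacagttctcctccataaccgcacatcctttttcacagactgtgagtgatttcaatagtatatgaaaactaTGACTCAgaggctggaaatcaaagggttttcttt
ADAM8, outside the gene, chr10:135072826-135073026: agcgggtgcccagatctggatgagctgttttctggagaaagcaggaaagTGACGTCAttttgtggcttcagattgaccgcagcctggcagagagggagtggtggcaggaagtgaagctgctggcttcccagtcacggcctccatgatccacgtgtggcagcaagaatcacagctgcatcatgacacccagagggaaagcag

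Most of the family had a peak of both factors in reach, and few members had many. A Fra-1 peak was in reach of 26 of 44 members (59.1%, 95% exact binomial interval 43.2 to 73.7), against 45.2% of all autosomal protein-coding genes. A Fra-2 peak was in reach of 29 members (65.9%, 50.1 to 79.5), against 58.9% of genes. Peaks of both lists were in reach of 25 members (56.8%, 41.0 to 71.7), against 42.5% of genes. Each of these shares over all genes lay inside the family's interval. Intervals cover counting error only, treat members as independent and are no test, and no difference from other genes was tested. Fra-2 peaks alone were in reach of 4 members (9.09%), namely ADAM33, ADAMTS4, ADAMTS19 and ADAMTSL2, against 16.4% of genes. ADAMTSL5 alone (1 member) had a Fra-1 peak and no Fra-2 peak, against 2.68% of genes. No peak was in reach of 14 members (31.8%), against 38.4% of genes.

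**Figure D1:**
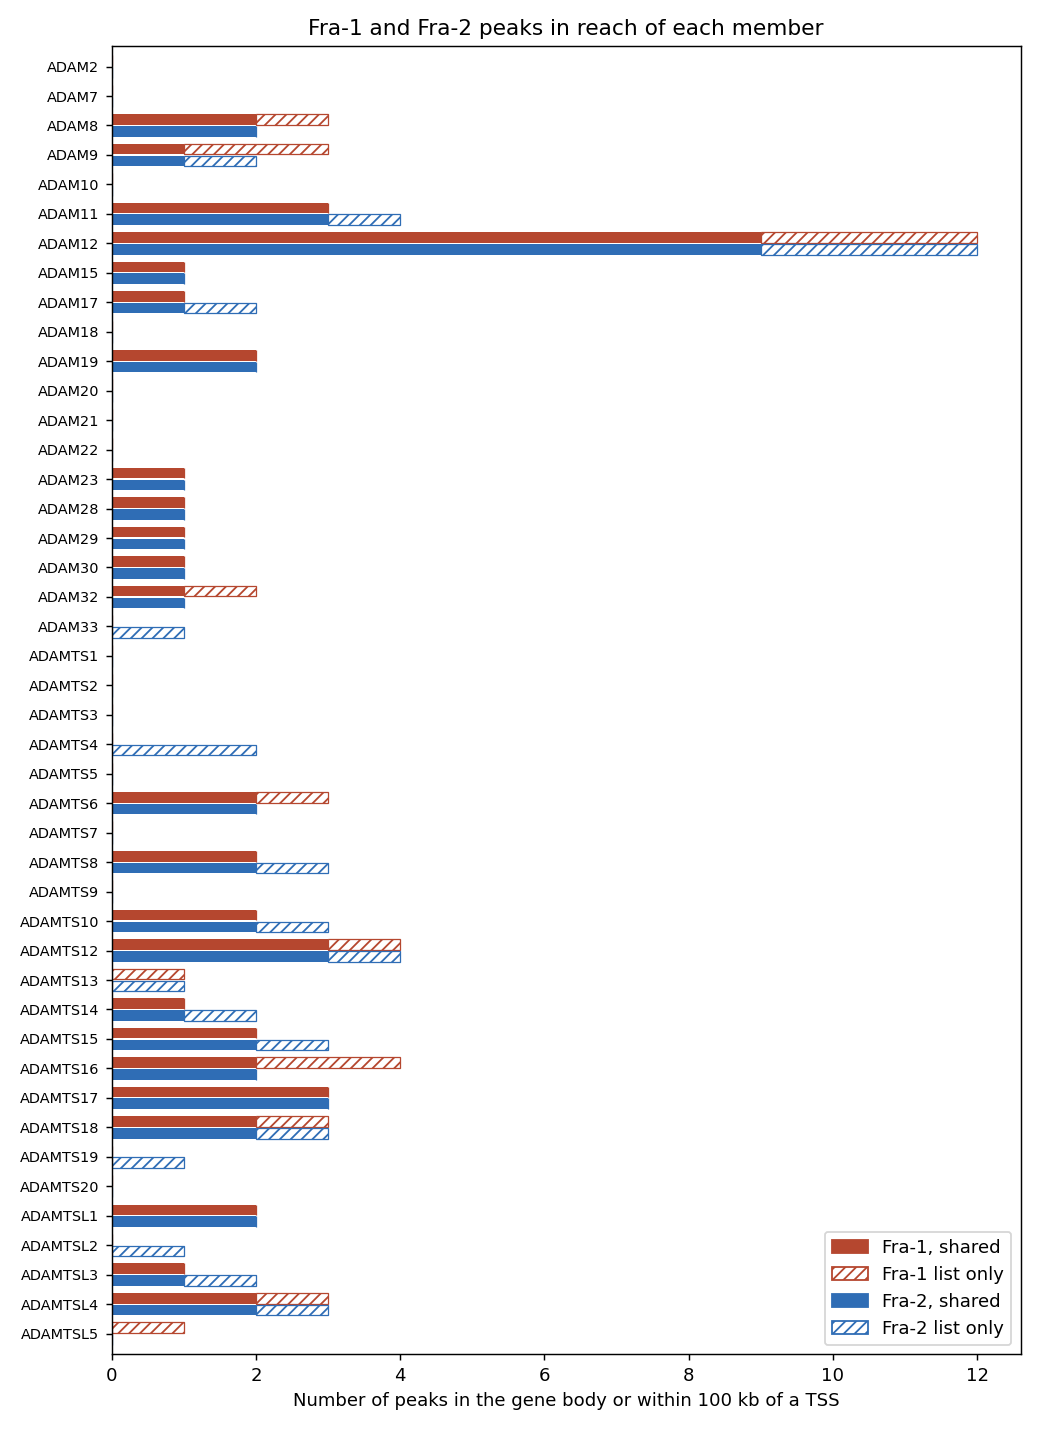
Number of Fra-1 (red) and Fra-2 (blue) peaks in reach of each of the 44 members, with filled bars for peaks that overlap the other list and hatched bars for peaks in 1 list only. ADAM12 has 12 peaks in each list, and every other member has at most 4 in either.

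The median member had 1 Fra-1 and 1 Fra-2 peak, against 0 and 1 over all autosomal protein-coding genes. At least 4 Fra-1 peaks were in reach of 3 members (6.82%), against 5.93% of genes, and at least 4 Fra-2 peaks also of 3 members, against 11.9% of genes. Family members are long genes, with a median length of 92.2 kb against 27.6 kb, and a long body widens the reach. Of the 21 members over 100 kb long, 13 had a Fra-1 peak and 14 a Fra-2 peak, against 53.5% and 63.0% of all genes of that length. Of the 23 shorter members, 13 and 15 had one, against 43.3% and 58.0% of genes. The number of peaks followed the length of the reach only weakly, with a Spearman rho over the 44 members of 0.22 with Fra-1 counts and 0.12 with Fra-2 counts (0.13 for both over 19229 genes). Members next to each other share peaks, so these values describe the set and are not independent.

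**Figure D2:**
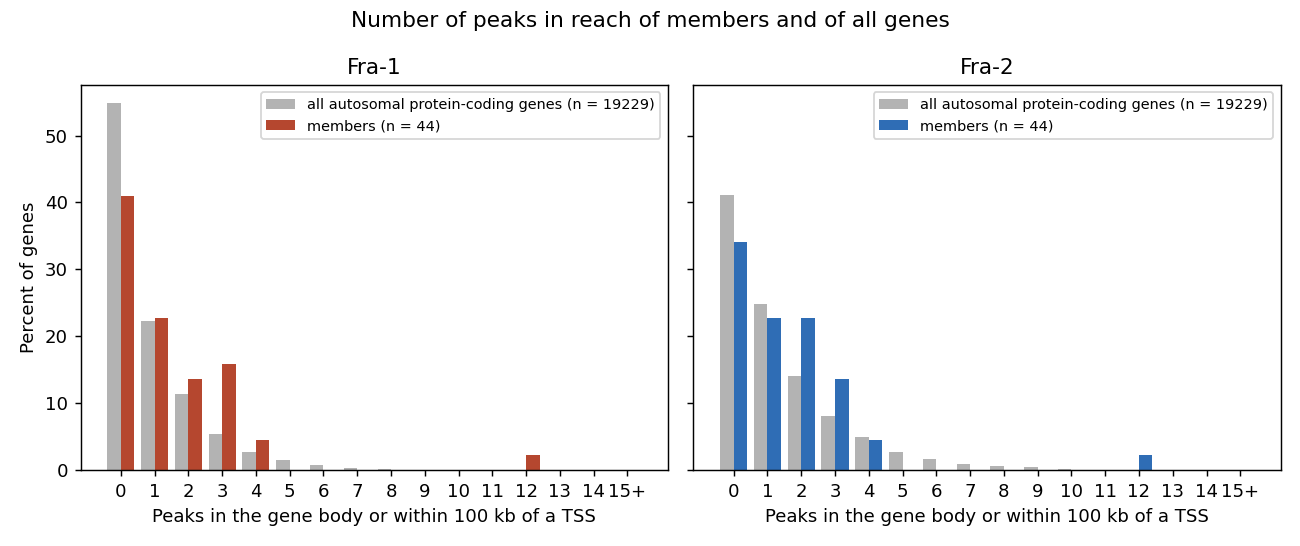
Percent of the 44 members (coloured) and of 19229 autosomal protein-coding genes (grey) by number of Fra-1 (left) and Fra-2 (right) peaks in reach. A smaller percent of members than of all genes has 0 peaks in both panels, and ADAM12 is the 1 member with 12.

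In total, 60 distinct Fra-1 and 64 distinct Fra-2 peaks were in reach of the family. Over the 12.1 Mb that the members' reach covers, this came to 4.95 peaks per Mb for Fra-1 and 5.28 for Fra-2, against 3.63 and 5.10 per Mb in the 1890 Mb within reach of all autosomal protein-coding genes. Without ADAM12 the family had 4.12 and 4.47 peaks per Mb, so that Fra-2 fell below the value for all genes. None of the family's peaks lay in repeat-like sequence (0 of 60, 0 to 5.96%, and 0 of 64, 0 to 5.60%), and other peaks in reach of a protein-coding gene did so in 3.49% (Fra-1) and 2.96% (Fra-2) of cases, inside these intervals. A peak was called repeat-like if it was no farther than 1 Mb from a large assembly gap (1 Mb or more), or if more than 20% of the 10-base words in the 1000 bp on either side of it occurred more than once.

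ADAM12 carried the most peaks by a wide margin. It encodes meltrin alpha, a sheddase with a membrane-bound and a secreted form that cuts ligands of the EGF receptor and IGF-binding proteins. The gene (chromosome 10, 127700950 to 128077046, minus strand, 376 kb long) had 12 Fra-1 and 12 Fra-2 peaks in reach. Only 0.0988% of all autosomal protein-coding genes (19 genes) had 12 or more Fra-1 peaks and 0.192% (37 genes) had 12 or more Fra-2 peaks. In each list, 9 of the 12 peaks were shared, which means that they overlapped a peak of the other list by at least 1 bp. Inside the gene were 9 of the Fra-1 peaks and 7 of the Fra-2 peaks.

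The shared sites of ADAM12 ran from intron 1 to the last exon and along its upstream side, with long empty stretches. No peak of either list lay between the sites at 189 and 326 kb from the TSS. Intron 3 held 3 of them, 141, 161 and 189 kb from the TSS, and the last of these, the window with 2 AP-1 elements shown above, was 200 bp wide for Fra-1 but 350 bp for Fra-2. Intron 14 held a site from 127751051 to 127751351 with the same ends in both lists. Intron 1 held a 150 bp site 37.7 kb from the TSS, again with the same ends. The last exon, number 23, held a 150 bp site from 127702251 to 127702401 whose centre was in the 3′ UTR. Upstream, a 300 bp site with the same ends in both lists lay 9.76 kb from the TSS, followed by sites at 71.8 and 93.0 kb that were nearer to a TSS of C10orf90. Counted by the nearest TSS, 7 of the 12 peaks of each list belonged to ADAM12 itself, and the others to FANK1 or C10orf90.

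Sites of ADAM12 in 1 list only were 100 or 150 bp wide. The Fra-1 list alone had a 150 bp peak in intron 1, 3.95 kb from the TSS, and 100 bp peaks in introns 3 and 14. The Fra-2 list alone had a 150 bp peak in intron 1, 12.4 kb from the TSS, and upstream peaks of 100 and 150 bp at 33.6 and 71.1 kb. Of the 12 peaks in each list, 10 had an AP-1 element no more than 100 bp from the centre. Both exceptions were shared sites: the one at 37.7 kb, which held a TEAD motif, and the one 9.76 kb upstream, which held a RUNX motif (both are spelled out further on). The reach of ADAM12 contained 89 copies of the AP-1 element, of which 14 lay in a peak of either list.

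**Figure D3:**
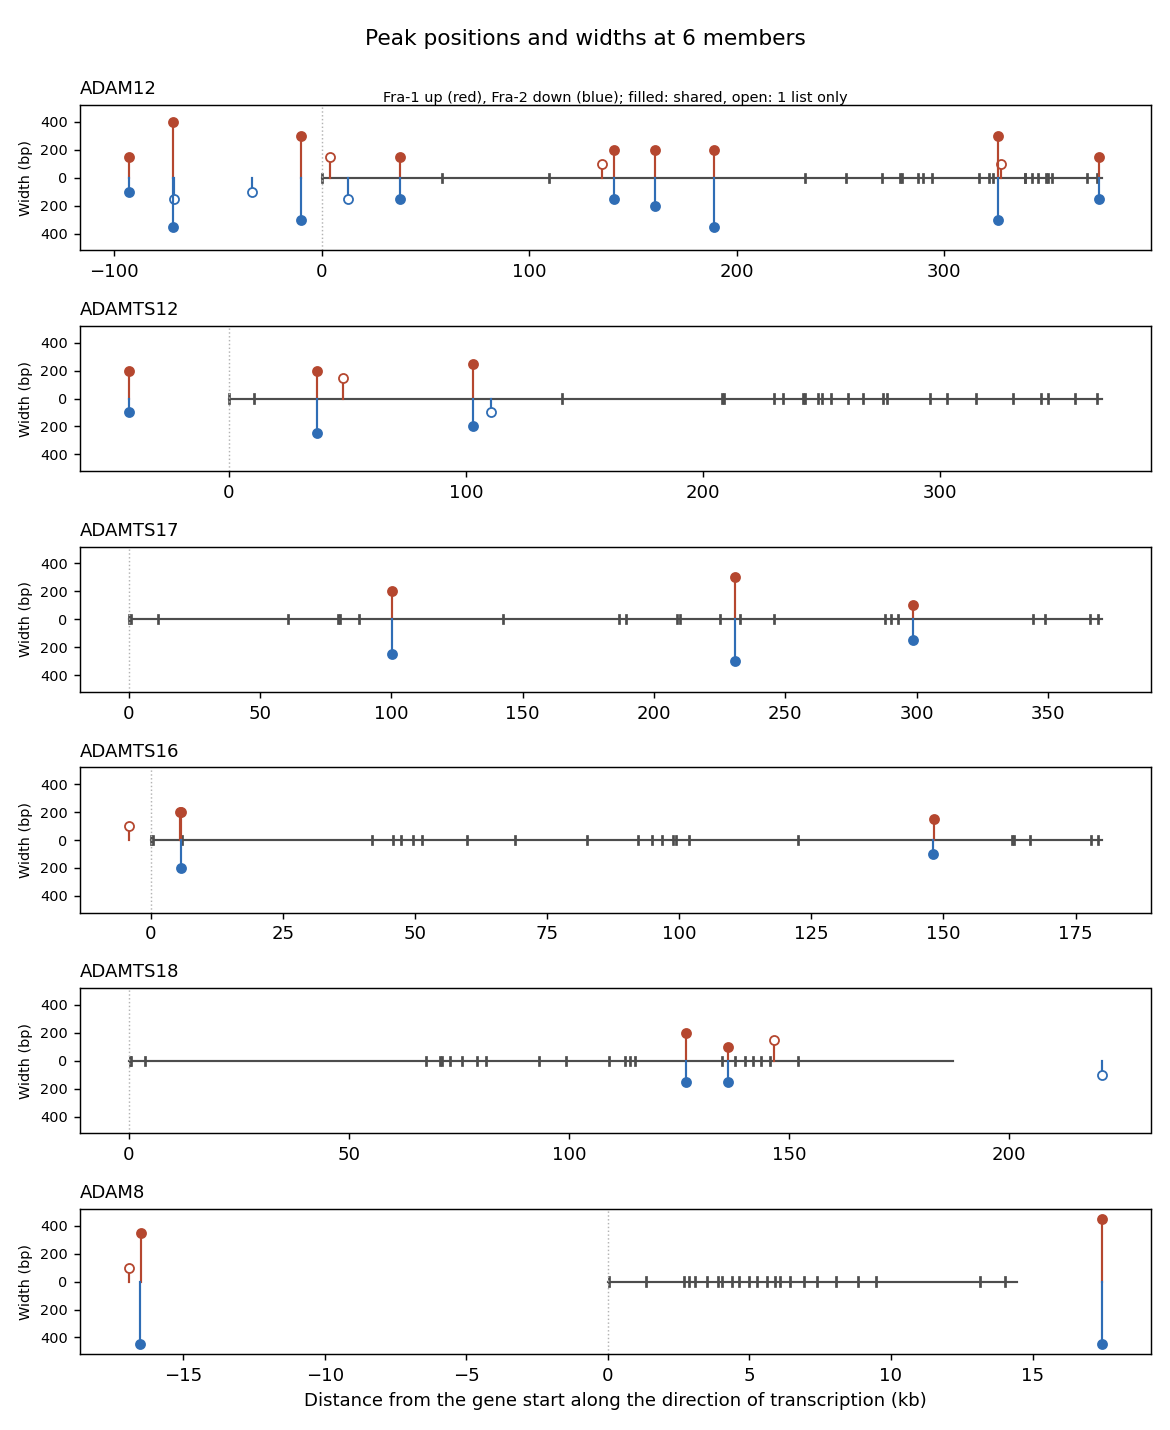
Fra-1 peaks (red, upward) and Fra-2 peaks (blue, downward) at 6 members, by distance of the peak centre from the gene start in kb and with the peak width in bp as the height of each mark. Grey lines are gene bodies with the exons of the canonical transcript as ticks, filled circles are shared peaks and open circles peaks in 1 list only. At ADAMTS16 the circle near 5.81 kb covers an unshared one at 5.51 kb. ADAM12 shows sites from intron 1 to its last exon and upstream, with long empty stretches.

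The other catalytic ADAM genes had between 0 and 3 peaks in each list. Of the 12 ADAM members that retain the catalytic residues, 8 had a Fra-1 peak, against 45.2% of all genes, and 9 a Fra-2 peak, against 58.9%. ADAM8, a protease of leukocytes and invasive tumour cells on chromosome 10 (135075924 to 135090372, minus strand), had the widest peaks of the family. One spanned 450 bp in both lists, from 135072701 to 135073151, 17.4 kb from the TSS and past the 3′ end of the gene. It held no AP-1 element anywhere between its ends, and its window with TGACGTCA is the last sequence above. The other shared site lay 16.5 kb upstream and was 350 bp wide for Fra-1, 450 bp for Fra-2. That site had 3 AP-1 elements and was nearer to a TSS of TUBGCP2, and a 100 bp Fra-1-only peak without the element lay next to it.

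The sheddases ADAM17 and ADAM9 had peaks in their first introns. ADAM17, which frees TNF and many EGF receptor ligands, lies on chromosome 2 (9628615 to 9696861, minus strand). It had a shared site in intron 1, 100 bp wide for Fra-1 but 150 bp for Fra-2, 3.06 and 3.04 kb from the nearest TSS, with 1 AP-1 element. A Fra-2-only peak lay 81.6 kb upstream, 6.45 kb from a TSS of YWHAQ. ADAM9 (chromosome 8, 38854273 to 38962964, plus strand) had 2 Fra-1-only peaks in intron 1, 2.55 and 4.40 kb from the TSS. Its Fra-2-only peak lay 72.2 kb upstream, 22.8 kb from a TSS of PLEKHA2. ADAM9 also had a shared site with 2 AP-1 elements in intron 11, 41.3 kb from the TSS. ADAM32, its neighbour, shares that site. ADAM10, which starts the cleavage of Notch and of the amyloid precursor protein, had no peak in reach: the nearest Fra-1 peak was 202 kb and the nearest Fra-2 peak 279 kb from its TSS.

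ADAM19, or meltrin beta, which sheds neuregulin, had 2 shared sites. One spanned 300 bp with the same ends in both lists, from 157030401 to 157030701 on chromosome 5, 27.8 kb upstream of the TSS. The other lay inside the annotated gene body but outside the canonical transcript, 4.43 kb from a TSS of NIPAL4 in the Fra-1 list. ADAM15, ADAM28 and ADAM30 had 1 shared site each, at 50.3, 75.1 and 36.8 kb from a TSS in the Fra-1 list, and that of ADAM15 was 1.60 kb from a TSS of ZBTB7B. ADAM33 had a single 100 bp Fra-2 peak, 86.7 kb away and 1.17 kb from a TSS of ADISSP. ADAM20 and ADAM21, a neighbouring pair known from testis, had none.

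Of the 8 ADAM genes without catalytic residues, 4 had a peak in each list, near the 45.2% (Fra-1) and 58.9% (Fra-2) of all genes. ADAM11, a brain ADAM on chromosome 17, had 3 Fra-1 and 4 Fra-2 peaks, but all of them lay past the gene and were nearest to GJC1. Its 1 Fra-2-only peak was 0.478 kb from a TSS of GJC1. ADAM23, a neuronal receptor of LGI proteins, had 1 shared site in intron 25, and ADAM29 had 1 outside the gene, at 81.2 kb. ADAM32 had, beside the site in ADAM9, a Fra-1-only peak in intron 15 with no AP-1 element. ADAM2 (fertilin beta), ADAM7, ADAM18 and ADAM22 had no peak in reach. ADAM22, a synaptic protein gene of 269 kb, was the farthest from any peak, with the nearest Fra-1 peak at 2020 kb and the nearest Fra-2 peak at 3230 kb. Among the 8 ADAM members known for testis or sperm, 3 had peaks in each list, against the same 45.2% and 58.9%.

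The ADAMTS genes were described by small lists of related enzymes, to be read against the 45.2% (Fra-1) and 58.9% (Fra-2) of all genes, or the 53.5% and 63.0% of genes over 100 kb long. The list of ADAMTS6, 10, 16, 17, 18 and 19 had a Fra-1 peak near 5 of 6 and a Fra-2 peak near 6 of 6, with medians of 3 and 2.5 peaks. The hyalectanases, which cut aggrecan and versican, had a Fra-1 peak near 2 of 7 (ADAMTS8 and ADAMTS15) and a Fra-2 peak near 3 of 7, with a median of 0 in both. The procollagen N-propeptidases ADAMTS2, ADAMTS3 and ADAMTS14 had peaks near 1 of 3. These lists were compared by counts alone, without a test, and their median gene lengths differed, at 233 kb, 28.0 kb and 235 kb.

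ADAMTS12, which cuts cartilage oligomeric matrix protein, had 4 peaks in each list, of which 3 were shared. Its gene lies on chromosome 5 (33523640 to 33892124, minus strand), and the widest Fra-1 site was a 250 bp peak in intron 2, 103 kb from the TSS. That site is the sequence above with 2 AP-1 elements; another shared site in intron 2, 37.1 kb from the TSS, had none. The last shared site, 42.3 kb upstream, was 2.09 kb from a TSS of RXFP3 and had none either. Its unshared peaks, 48.2 kb (Fra-1) and 110 kb (Fra-2) from a TSS, were also in intron 2. ADAMTS7, the other member of that pair, had no peak in reach.

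ADAMTS17 (chromosome 15, 100511642 to 100882210, minus strand), linked to fibrillin matrix, had 3 Fra-1 and 3 Fra-2 peaks and all of them were shared and intronic. They lay in introns 7, 13 and 18, at 99.4, 230 and 298 kb from a TSS. The site in intron 13 spanned 300 bp with the same ends in both lists, and the one in intron 7 had 3 AP-1 elements. ADAMTS16 (chromosome 5, 5140443 to 5320417, plus strand) had the peaks closest to the start of the gene among ADAMTS members: a Fra-1-only peak 4.14 kb upstream, a Fra-1-only peak in intron 2 at 5.51 kb and a shared 200 bp site at 5.81 kb. The centre of the last lay in coding exon 3, the only coding exon of the family with a peak centre. The remaining Fra-1 site, in intron 18, was shared and had no AP-1 element.

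ADAMTS18 on chromosome 16 had the only peak of the family within 1 kb of a member's TSS, a Fra-1-only peak from 77322201 to 77322351 in intron 22. That TSS lies inside the gene, and the peak was 147 kb from the start of the gene. It had no AP-1 element, whereas the shared sites in introns 16 and 17 had 1 each, as did a Fra-2-only peak past the gene, 1.41 kb from a TSS of SYCE1L. ADAMTS6 had 3 Fra-1 peaks in intron 20, of which 2 were shared, and 1 of the shared sites had an AP-1 element. ADAMTS10 had 2 shared sites, nearest to MYO1F and NFILZ, and a Fra-2-only peak 8.20 kb upstream of its own TSS with an AP-1 element. ADAMTS19 had a single Fra-2 peak, 100 bp wide, in intron 16, and it was nearer to a TSS of MINAR2.

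ADAMTS8 and ADAMTS15 are neighbours on chromosome 11 and share all of their peaks, 2 of Fra-1 and 3 of Fra-2. The nearest to a TSS spanned 130348101 to 130348301 in both lists, 29.7 kb from the TSS of ADAMTS15 and 49.7 kb from that of ADAMTS8. ADAMTS4 had 2 Fra-2-only peaks of 100 bp, and they were nearest to PFDN2 and DEDD. ADAMTS13, the von Willebrand factor protease, had 1 narrow peak in each list near SURF4. The Fra-1 peak (chromosome 9, 136240401 to 136240501) and the Fra-2 peak (136240601 to 136240701) lay close together but did not overlap. Neither had an AP-1 element. ADAMTS14 had a shared site with 2 AP-1 elements in intron 4 and a Fra-2-only peak 15.9 kb upstream.

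No peak was in reach of ADAMTS1, 2, 3, 5, 7, 9 and 20. ADAMTS1 and ADAMTS5, which are neighbours on chromosome 21, were 255 and 379 kb from the nearest peak of both lists. ADAMTS20 missed the limit narrowly, with a 100 bp Fra-2 peak 101 kb from a TSS. Just inside the limit were the ADAM12 site at 93.0 kb and a Fra-2-only peak 93.8 kb from ADAMTS8. Just outside were, beside that of ADAMTS20, a site of both lists 101 kb from ADAM17 and one 105 kb from ADAM9.

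The ADAMTSL genes, whose products are matrix proteins without protease activity, each had at least 1 peak, while 38.4% of all genes had none. A Fra-1 peak was in reach of 4 of 5, against 45.2% of genes, and a Fra-2 peak also of 4 of 5, against 58.9%. ADAMTSL4, a fibrillin-binding member on chromosome 1, had 3 peaks in each list, of which 2 were shared. None was in its body, all Fra-1 peaks were nearest to ENSA, and its Fra-2-only peak was 0.905 kb from a TSS of MCL1. ADAMTSL1, whose gene is 1000 kb long, had 2 shared sites, of which the 300 bp Fra-1 peak in intron 1 of the canonical transcript, 16.6 kb from a TSS, had no AP-1 element. ADAMTSL3 had a shared 250 bp site in intron 3 and a Fra-2-only peak in intron 2, both with the element. ADAMTSL2 had a Fra-2-only peak with 2 AP-1 elements in intron 11. The single peak of ADAMTSL5, in the Fra-1 list, was 300 bp wide, had no AP-1 element and lay 0.600 kb from a TSS of APC2.

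Peaks of both lists coincided at most sites of the family. Of the Fra-1 peaks, 45 of 60 (75.0%, 62.1 to 85.3) overlapped a Fra-2 peak, and 45 of 64 Fra-2 peaks (70.3%, 57.6 to 81.1) overlapped a Fra-1 peak. Other autosomal peaks in reach of a protein-coding gene overlapped in 80.7% and 57.4% of cases. For Fra-1 that value lay inside the family's interval and for Fra-2 just under it, and neither difference was tested. The shares over all autosomal peaks, 80.4% for Fra-1 and 61.3% for Fra-2, both lay inside. Of the 45 pairs, 12 had the same start and end in both lists. The median distance between the centres of a pair was 25 bp and the largest 75 bp. Fra-1 was the wider peak in 17 pairs and Fra-2 in 15.

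Wide peaks of the family were shared more often than narrow ones. Of Fra-1 peaks at least 300 bp wide, 9 of 10 were shared, against 9 of 15 that were 100 bp wide. Of Fra-2 peaks, 8 of 8 and 7 of 17 were shared at these widths. The same order held for other peaks in reach of genes, at 98.9% and 64.8% for Fra-1, and 92.7% and 33.6% for Fra-2. The only wide Fra-1 peak without a partner was that near ADAMTSL5. Widths ranged from 100 to 450 bp in both lists, and the median was 200 bp among Fra-1 and 150 bp among Fra-2 peaks, against 150 bp for all autosomal peaks of either list.

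The AP-1 element marked most of the family's peaks and its place was at their centres. At most 100 bp separated it from the centre in 41 of 60 Fra-1 peaks (68.3%, 55.0 to 79.7) and in 51 of 64 Fra-2 peaks (79.7%, 67.8 to 88.7). Other peaks in reach of a protein-coding gene held it in 65.0% and 75.1% of cases, which both lay inside these intervals. Windows of the same length 10 kb to each side of the family's peaks held it in 1 of 118 cases around Fra-1 (0.847%) and 2 of 128 around Fra-2 (1.56%), and all such windows laid end to end over the members' reach in 2.99%. At least 2 copies were in 9 Fra-1 and 10 Fra-2 peaks.

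**Figure D4:**
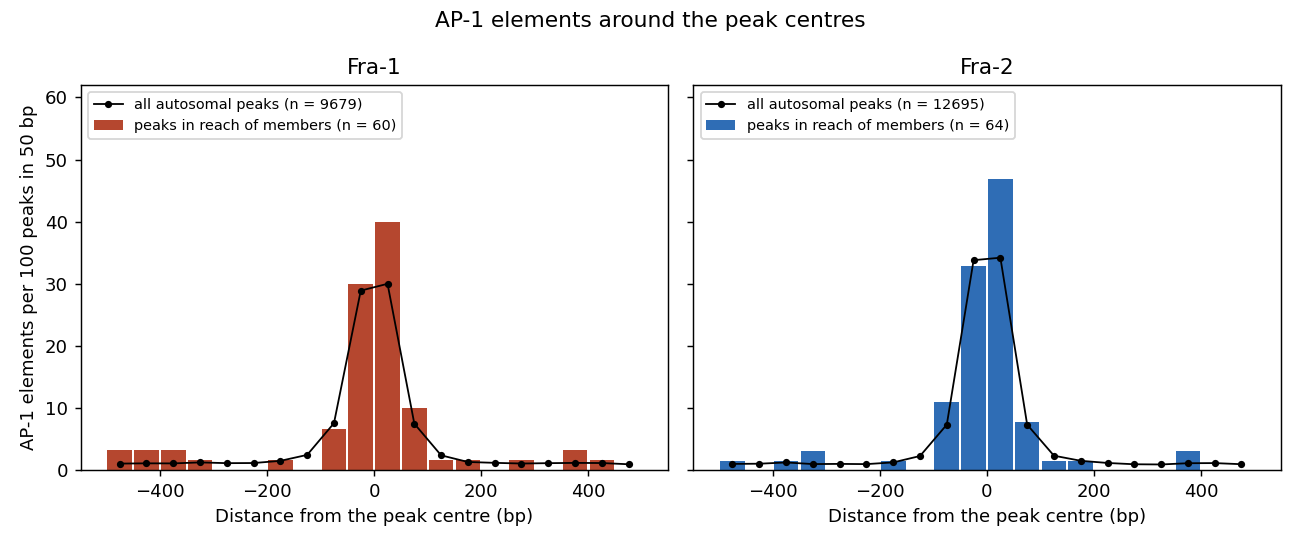
AP-1 elements per 100 peaks in bins of 50 bp by distance from the peak centre, for the family's Fra-1 (left, n = 60) and Fra-2 (right, n = 64) peaks as bars and for all autosomal peaks as the black line. The highest bars, 40.0 for Fra-1 and 46.9 for Fra-2, are those from 0 to 50 bp.

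Shared and unshared sites of the family differed in how often they held the element, by counts that are small. Shared sites held it in 34 of 45 cases (75.6%, 60.5 to 87.1) in either list. Of the Fra-1-only peaks, 7 of 15 held it (46.7%, 21.3 to 73.4), and of the Fra-2-only peaks 17 of 19 (89.5%, 66.9 to 98.7). Among other peaks in reach of genes, shared sites held it in 70.7% (Fra-1) and 70.9% (Fra-2) of cases, Fra-1-only peaks in 41.1% and Fra-2-only peaks in 80.7%, all inside the family's intervals. Of the 1876 copies of the element in the members' reach, 49 (2.61%, 1.94 to 3.44) lay wholly inside a Fra-1 peak and 60 (3.20%, 2.45 to 4.10) inside a Fra-2 peak, against 1.86% and 2.82% in reach of all genes. For Fra-1 the share over all genes lay just under the family's interval and for Fra-2 inside it, and neither difference was tested. ADAM12 alone held 11 of the copies in Fra-1 peaks and 11 of those in Fra-2 peaks. Copies flanked by A before and T after were 10 of the 68 inside a peak of either list (14.7%, 7.28 to 25.4) and 114 of the 1808 elsewhere in reach (6.31%, 5.23 to 7.53), and over all genes 14.4% and 5.41%.

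Other motifs were in few of the family's peaks, sought on both strands in the same windows. The TEAD motif, GGAATGC (or with T as its last base), lay in 7 Fra-1 peaks (11.7%, 4.82 to 22.6) and 4 Fra-2 peaks (6.25%, 1.73 to 15.2), against 14.1% and 11.6% of other peaks near genes and 5.28% of windows over the members' reach. The TEAD motif lay in 4 of 45 shared Fra-2 peaks (2.48 to 21.2%) and 0 of 19 Fra-2-only peaks (0 to 17.6%). Other Fra-2 peaks near genes held it in 13.6% and 8.87% of cases. In the Fra-1 list it lay in 5 of 45 shared peaks (3.71 to 24.1%) and 2 of 15 Fra-1-only peaks (1.66 to 40.5%). Other Fra-1 peaks near genes held it in 13.5% and 16.7% of cases, and all of these shares lay inside the family's intervals. The RUNX motif TGTGGTT lay in 5 Fra-1 and 4 Fra-2 peaks (8.33% and 6.25%), against 7.08% and 6.41% of all autosomal peaks and 3.93% of windows in reach. The E-box CAGGTG lay in 3 and 4 peaks (5.00%, 1.04 to 13.9, and 6.25%, 1.73 to 15.2), against 13.3% and 13.5% of other peaks near genes, inside these intervals, and 15.5% of windows in reach. TGACGTCA lay in 1 peak of each list, the ADAM8 site (1.67%, 0.0422 to 8.94, and 1.56%, 0.0396 to 8.4). Other peaks near genes held it in 0.235% (Fra-1) and 0.448% (Fra-2) of cases, inside these intervals, and windows in reach in 0.0799%.

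At the members' own starts the counts were near the shares over all genes. No member had a peak of either list within 1 kb of the start of its gene model, against 1.01% of all autosomal genes for Fra-1 and 2.12% for Fra-2. Within 1 kb of any of its own TSS, 1 member (2.27%) had a Fra-1 peak, against 1.9% of genes, and 0 had a Fra-2 peak, against 3.73%. Of the 60 Fra-1 peaks, 35 were in the body of a member, 31 of them in introns of the canonical transcript and 2 in its exons. Of the 64 Fra-2 peaks, 30 were in a body, 26 of them in introns and 2 in exons. The median distance to the nearest member TSS was 49.2 kb for Fra-1 and 57.9 kb for Fra-2, and 16 Fra-1 and 14 Fra-2 peaks were over 100 kb from a TSS in a long gene.

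Counting by gene body alone, 14 members (31.8%, 18.6 to 47.6) held a Fra-1 peak, against 13.1% of genes, and 15 (34.1%, 20.5 to 49.9) a Fra-2 peak, against 18.2% of genes. With 10 kb around each TSS added, the counts were 14 and 16 members, against 16.5% and 23.6% of genes. Members are longer than most genes, and the part of length in these counts was not tested. The nearest TSS of any protein-coding gene belonged to a member for 39 of 60 Fra-1 peaks (65.0%), and for 37 of 64 in the Fra-2 list (57.8%). The remaining peaks were in reach of a member but nearer to another gene, as at ADAM11, ADAM15, ADAMTS4 and ADAMTSL4.

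Genes that act with these proteases were described from 5 further lists, of which 61 genes matched the autosomal annotation. A Fra-1 peak was in reach of 44 of them, against 45.2% of all genes, and a Fra-2 peak of 52, against 58.9%. The counts of the single lists are to be read against the same shares. Some of the 61 genes were in reach of the same peaks, so these counts are not independent. Shed ligands and receptors had a Fra-1 peak near 16 of 19 and a Fra-2 peak near 18 of 19. The most peaks were near NRG1 (neuregulin, 6 and 9), HBEGF (a heparin-binding EGF receptor ligand, 5 and 8), JAG1 (a Notch ligand, 6 and 7) and CD44 (the hyaluronan receptor, 6 and 6). The length of these leading genes ran from 13.8 kb (HBEGF) to 1220 kb (NRG1), and counts were not scaled to it. The partners of the sheddases had peaks near 10 and 11 of 13, with 5 peaks of each list near TSPAN14, a tetraspanin that escorts ADAM10, and 3 and 5 near FRMD8, which stabilises the iRhom proteins needed by ADAM17. TSPAN5, another gene of that list, had 5 and 3 peaks, and RHBDF2, the gene of iRhom2, had 1 and 5.

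Among inhibitors and clearance receptors, 4 of 7 had a Fra-1 peak and 5 of 7 a Fra-2 peak. TIMP2, a tissue inhibitor of metalloproteases, had 4 and 7 peaks, while TIMP3, the main inhibitor of several ADAMTS proteins, had none. The enzymes that activate or glycosylate the proteases had peaks near 3 and 5 of 6. PCSK5 (472 kb long) had 2 and 4, and POFUT2 (24.0 kb long) had 3 and 3. A Fra-2 peak lay within 1 kb of a TSS of FURIN, the proprotein convertase that removes their propeptide. Of the 61 genes in the 5 lists, 1 had a Fra-1 peak and 2 a Fra-2 peak that near a TSS, against 1.9% and 3.73% of all genes. Matrix substrates and partners had peaks near 11 and 13 of 16, with 2 and 6 near COL1A1 (17.5 kb long). VWF (176 kb long) had 3 and 4, as did LTBP1 (453 kb long), which had a promoter peak in both lists. COMP, the substrate of ADAMTS7 and ADAMTS12, and COL2A1 had none. TIMP3, COMP and COL2A1 were named beside the leading genes, after their values had been seen.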

How the data were processed

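For each antibody the authors deposited 1 peak list from MDA-MB-231 cells, with a start and an end on a grid of 50 bp and no score. The submitters' processing notes name Bowtie2 and hg19, without a role or version. Which peak caller and threshold were used, whether input entered, and how replicates were merged is not given in the sources used here. No peak passed the end of its nuclear chromosome in GRCh37, and starts and ends are those of the files, read as 1-based. Depth is unknown.

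The members and gene lists were chosen with earlier results of these data known. Peaks were assigned by their centre, with all protein-coding transcripts of GENCODE 44 (lifted to GRCh37) giving TSS. Introns and exons are numbered in the canonical transcript. Motifs were counted within 100 bp of centres. Of the lists' genes, ADAMTSL6 and L1CAM had no autosomal match. Positions are given for the 12 members with the most peaks, those with a peak within 1 kb of a TSS, the 10 widest peaks of each list and members with 1 list only, with other members added afterwards; sequences on chromosome 8 are not printed; other lists name up to 4 genes each. No test was made, as there are no replicate lists. Assignment, overlap and motif search were tested on simulated data. Python 3.11.15, numpy 2.4.6, scipy 1.17.1 and matplotlib 3.10.9 were used.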

Additional observations from a re-analysis of the deposited data

How the results depend on the processing

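In all, 9 values of the family (members near a peak of Fra-1, of Fra-2 and of both, distinct peaks, overlap and AP-1 shares) were recomputed under 11 alternatives, of which 1, leaving out ADAM12, was chosen after seeing the data. Of 67 recomputed values, 48 stayed within 1.5 times the count or within the interval of the share. The 9 values with repeat-like peaks left out are among the 48. They did not change at all, because no peak of the family was repeat-like. With a reach of the gene body or 10 kb, members near Fra-1, Fra-2 and both numbered 14, 16 and 13, peaks 37 and 32, and the Fra-2 overlap was 81.2%. With the gene body alone the values were 14, 15 and 13 members, 35 and 30 peaks, and 83.3%. With peaks at least 200 bp wide, 17 members had Fra-2 and 14 both, and 33 and 29 peaks were left. With the nearest TSS only, 39 and 37 peaks counted. With the AP-1 element within 50 bp of the centre, the Fra-2 share was 65.6%. These settings admit fewer peaks, genes or bases, so the lower counts and the lower AP-1 share follow by construction. The Fra-2 overlap, 70.3% as reported, is a share and need not rise for that reason. Its rise was not compared with other genes and was not tested. Without ADAM12, 48 Fra-1 and 52 Fra-2 peaks remained in reach. No paired analysis was possible because there is 1 peak list per antibody and no test. Without heights or depth, a site absent from a list may have been missed by the peak call.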
